A study of Mus musculus with 6 samples.

Results

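The smooth muscle contractile genes are 34 genes of the myometrium, the muscle wall of the uterus, chosen by name as contractile, cytoskeletal and small heat shock genes. All 34 were on the array, with 75 probe sets that carry exactly 1 gene symbol, out of 18193 genes and 45037 probe sets in all. A probe set is a group of short DNA probes read as 1 value, and the brightest probe set of a gene stands for it here. All 34 genes passed the filter on dim signal and were tested, as were 74 of their 75 probe sets.

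The data are whole-uterus RNA profiles of 3 control mouse samples of genotype Ihhf/f and 3 samples of genotype Ihhd/d (PRcre/+Ihhf/f), called Ihh-ablated or ablated here, each on 1 Affymetrix mouse expression array. Both groups carry floxed alleles of Indian hedgehog (Ihh), a ligand that the uterine epithelium secretes, and in the Ihhd/d animals a Cre driven by the locus of the progesterone receptor (Pgr) removes the gene. All 6 samples are from day -1 of the artificial decidual response, in which hormones and a stimulus make the endometrium differentiate as in pregnancy. Age is not given in the labels, which also leave unsaid whether animals were pooled. The p-values therefore reflect only how these 6 arrays vary, which may be technical. Titles and genotypes define the groups here, although the source labels speak of SmoM2, another mouse model. The progesterone receptor is made in the epithelium, stroma and muscle of the uterus. The Cre is thus not confined to the cells that make Ihh. By genotype only the ablated group carries the PRcre allele at the Pgr locus, so effects of that allele, Cre included, and of the lost gene cannot be told apart.

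Smooth muscle shortens when calcium and calmodulin activate myosin light chain kinase, and myosin then pulls on thin filaments of smooth muscle actin, tropomyosin, calponin and caldesmon. Dense bodies, desmin filaments and integrin adhesions carry the force through the cell. Most of these genes are switched on by serum response factor with its coactivator myocardin, through a DNA element called the CArG box.

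The Ihh probe set read 163.9, 162.3 and 140.2 in control and 121.4, 93.3 and 135.4 in ablated uteri (replicates 1 to 3), a log2 difference of -0.43 that did not pass the test (adjusted p = 0.164). The Hedgehog target Gli1 read 355.7 to 515.2 in control and 64.8 to 76.3 in ablated uteri (log2 -2.53, SE 0.16, adjusted p = 0.000492). Array medians lay between 121.4 and 142.5 (intensity, linear scale), the highest in control replicate 2. Control replicate 3 carried skeletal muscle transcripts: Myl1, a fast myosin light chain, read 2003 there and 40.8 to 54.6 in the other arrays. Ihh-ablated replicate 2 carried pancreatic transcripts, with Cpa1, a carboxypeptidase, at 10172 against 84.2 to 262.9. Adipocyte transcripts differed between arrays as well, with Adipoq between 266.2 and 3946.

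Most contractile genes differed little between the genotypes. Of 34 genes 2 were lower and 0 higher in ablated uteri at an adjusted p under 0.05 (limma), which is 5.88% of the genes, where 1.53% of all 15530 genes tested were lower and 1.28% higher. The lower genes were Actg2, an actin of visceral smooth muscle, and Hspb6, a small heat shock protein. The median log2 difference (Ihh-ablated minus control) was -0.02 over the 34 genes and -0.04 over all genes tested, and the median size of the difference was 0.10 against 0.17. Of the 34 genes 26 differed by less than 0.25 on the log2 scale, and 20 had a 95% interval that lay wholly within 0.25 of no difference. In whole tissue, fewer muscle cells and less RNA per muscle cell cannot be told apart.

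Bright signal went with small error. Of the 34 genes 27 lay above the 90th percentile of all probe sets by mean intensity, and 15 above the 99th. Their median SE was 0.07 on the log2 scale, against 0.13 over all genes tested. The highest value on any array was 15808 to 17134, close to the 13692 to 15231 read for Acta2, and whether the brightest probe sets were near saturation, which would shrink their differences, was not tested. Groups did not overlap for 14 of the 34 genes (41.2%), 9 lower and 5 higher, and for 32.3% of all genes tested.

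**Figure D1:**
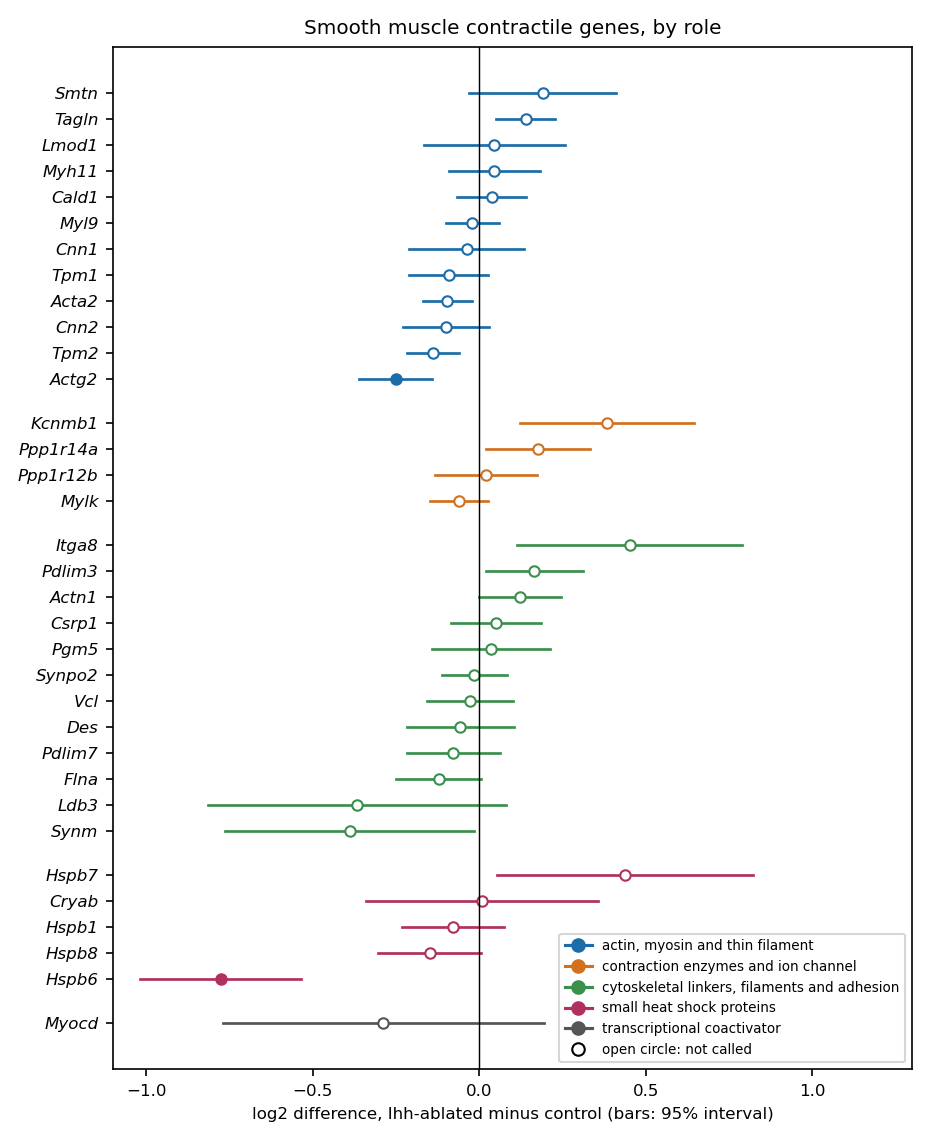
Log2 difference (Ihh-ablated minus control, horizontal axis) of the 34 genes by role, with 95% intervals from the limma fit; filled circles passed an adjusted p of 0.05 and open circles did not. Actg2 and Hspb6 are the filled circles, and most other genes sit within 0.25 of no difference.

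Among the 12 genes of actin, myosin and the thin filament, 1 was lower, 0 were higher and 11 did not pass, with a median of -0.03. Actg2 read 7230, 7522 and 6732 in control and 5996, 5964 and 6068 in ablated uteri. Every Ihh-ablated array lay below every control array. The means were 7161 ± 399.6 and 6010 ± 53.4 (SD, n = 3 each), a ratio of 0.840 (log2 -0.25, SE 0.05, adjusted p = 0.0337). This call rests on all arrays but 1. It held without control replicate 3 (adjusted p = 0.00735) and was lost without any other array (adjusted p from 0.0901 to 0.129). It was also lost when arrays were centred on their medians (log2 -0.16, adjusted p = 0.196). Without an intensity trend (adjusted p = 0.178) or without the filter on dim signal (adjusted p = 0.0514), Actg2 did not pass either.

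Acta2, the actin of vascular smooth muscle that the myometrium also makes, read 14742, 15231 and 15214 in control and 14165, 14436 and 13692 in ablated uteri. The groups did not overlap, but the difference was small (log2 -0.10, 95% interval -0.17 to -0.02) and did not pass (adjusted p = 0.147). The name of its probe set ends in _s_at, Affymetrix's mark for probes that match more than 1 transcript, so related actins may add to the value. Its dimmer probe sets read 131.0 to 195.8 and differed by -0.06 and 0.25, neither past the test (adjusted p = 0.761 and 0.313).

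Myh11, the smooth muscle myosin heavy chain and the defining motor of this tissue, read 6712, 6684 and 7718 in control and 6958, 7312 and 7466 in ablated uteri. The groups overlapped, with a log2 difference of 0.04 (95% interval -0.09 to 0.18, adjusted p = 0.665). Its partner Myl9, the regulatory light chain, read 8911, 9355 and 9094 against 8945, 8980 and 9039. That is a difference of -0.02 with an interval of -0.10 to 0.06.

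Tagln (transgelin, an actin-bundling protein also called SM22) leaned the other way from the actins. It read 9760, 10392 and 10424 in control and 11398, 10919 and 11351 in ablated uteri. All Ihh-ablated arrays were the higher ones, by 10.1% (log2 0.14, SE 0.04), which did not pass (adjusted p = 0.103). Tpm2 (beta-tropomyosin) read 12388, 12978 and 13111 against 11747, 11673 and 11497, again without overlap (log2 -0.14, SE 0.03, adjusted p = 0.0752). A second bright Tpm2 probe set gave the same difference of -0.14 (adjusted p = 0.0792). A dim one, whose name marks probes that may cross-hybridise, read 337.2 in control replicate 3 and 49.7 to 84.4 in the other arrays, the same array in which skeletal muscle transcripts were high. Their part in Tpm2 was not tested.

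The remaining thin filament genes did not pass either. Cnn1 (calponin, which restrains myosin at the filament) read 3958, 4907 and 4538 in control and 4565, 4238 and 4208 in ablated uteri, with overlapping groups (log2 -0.04, 95% interval -0.21 to 0.14, adjusted p = 0.776). Smtn (smoothelin) read 2526, 2927 and 3359 against 3094, 3480 and 3426, a difference of 0.19 with an adjusted p of 0.271, and control replicate 1 was the lowest array. Cnn2, Tpm1, Cald1 (caldesmon) and Lmod1 (leiomodin, a nucleator of actin filaments) lay between -0.10 and 0.05. A dimmer Tpm1 probe set read 360.6, 396.8 and 271.4 against 225.3, 242.8 and 187.2 (log2 -0.64, adjusted p = 0.0796), while the 2 bright ones differed by -0.09 and -0.08.

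**Figure D2:**
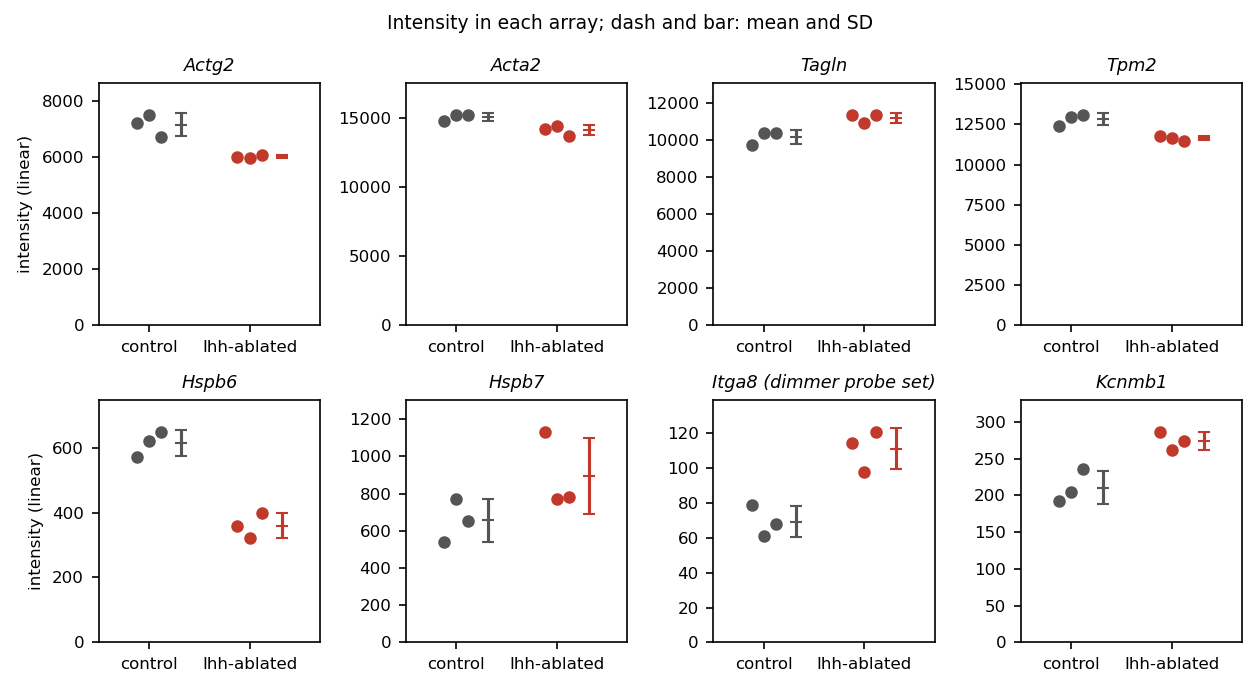
Intensity on a linear scale from 0 (vertical axis) of 8 members in each control (grey) and Ihh-ablated (red) array, with mean and SD. Actg2 and Hspb6 were lower and the dimmer Itga8 probe set was higher in ablated uteri; no other panel shows a called gene, and the groups of Acta2, Tagln, Tpm2 and Kcnmb1 lay apart.

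Promoter windows of RefSeq (build GRCm38.p6, 250 bases before to 50 after each annotated gene start) were found for 29 of the 34 genes and not for Actg2, Myh11, Tagln, Myocd and Cryab. A perfect CArG box, which reads the same on both strands, was found in the windows of 4 genes (13.8%), Myl9, Cnn2, Vcl and Ldb3, against 1.81% of 27025 genes. A CArG box with 1 C or G among its middle bases was found in 5 (17.2%, against 9.69%), Acta2, Myl9, Hspb6, Pdlim3 and Synm. The Gli binding site GACCACCCA, searched on both strands, was in 0 of the 29 windows and in 0.289% of all genes, which says only that these letters are not in these windows. The kinds exclude each other and both were searched on both strands. Of the 4 genes with a perfect box, Myl9, Vcl and Cnn2 differed by -0.02, -0.03 and -0.10 and Ldb3 by -0.37. Of those with a near match, Hspb6 differed by -0.78, Synm by -0.39, Acta2 by -0.10, Myl9 by -0.02 and Pdlim3 by 0.16, and Hspb6 alone passed the test. The windows below show the best-known smooth muscle promoter, a light chain promoter with both kinds of box, and the more downstream of 2 windows of the gene with the largest fall, with CArG boxes in capitals.
Acta2, chr19:34255324-34255623, minus strand: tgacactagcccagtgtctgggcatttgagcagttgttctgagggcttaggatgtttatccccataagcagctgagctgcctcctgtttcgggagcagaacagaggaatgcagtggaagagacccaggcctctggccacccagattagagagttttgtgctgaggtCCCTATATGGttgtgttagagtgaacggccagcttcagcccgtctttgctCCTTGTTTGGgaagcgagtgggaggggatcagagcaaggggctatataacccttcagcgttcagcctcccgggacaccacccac
Myl9, chr2:156775214-156775513, plus strand: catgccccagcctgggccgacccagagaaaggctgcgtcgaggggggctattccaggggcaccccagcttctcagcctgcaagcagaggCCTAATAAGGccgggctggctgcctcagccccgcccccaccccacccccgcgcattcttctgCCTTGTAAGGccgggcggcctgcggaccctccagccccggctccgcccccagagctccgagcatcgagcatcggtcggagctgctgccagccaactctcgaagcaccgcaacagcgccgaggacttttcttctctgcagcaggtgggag
Hspb6, chr7:30553051-30553350, plus strand: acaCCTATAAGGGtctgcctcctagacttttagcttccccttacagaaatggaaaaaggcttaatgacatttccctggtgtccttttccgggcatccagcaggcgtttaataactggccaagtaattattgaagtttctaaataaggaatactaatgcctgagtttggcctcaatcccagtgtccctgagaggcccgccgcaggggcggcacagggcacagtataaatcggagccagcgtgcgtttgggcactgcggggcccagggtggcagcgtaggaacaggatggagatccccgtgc
The Acta2 boxes start 84 and 34 bases before the annotated gene start, those of Myl9 161 and 99 bases before it, and that of Hspb6 247 bases before it.

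The kinase, phosphatase regulator and ion channel genes that set the contraction state gave 0 calls among 4 genes (median 0.10). Mylk, the myosin light chain kinase, read 6986 to 7556 over all 6 arrays (log2 -0.06, 95% interval -0.15 to 0.03). Ppp1r12b, a targeting subunit of the myosin phosphatase that opposes it, differed by 0.02 with an interval of -0.13 to 0.17. Its dimmer probe sets differed by -0.28, -0.18 and -0.25, none past the test (adjusted p = 0.197, 0.545 and 0.401). Ppp1r14a (CPI-17), an inhibitor of that phosphatase, read 1029, 1105 and 1032 against 1220, 1164 and 1193, without overlap (log2 0.18, SE 0.07, adjusted p = 0.183). Kcnmb1, the beta subunit of the large-conductance calcium-activated potassium channel, which relaxes the cell, read 192.2, 204.4 and 235.6 in control and 286.5, 261.6 and 273.9 in ablated uteri. All Ihh-ablated arrays were higher, by 30.4% (log2 0.38, SE 0.12), which did not pass (adjusted p = 0.117). Its other probe set differed by 0.35 (adjusted p = 0.136), and Kcnmb1 passed in 1 alternative, without control replicate 3 (log2 0.47, adjusted p = 0.0394), where 12.2% of all genes were called. Kcnma1, the pore subunit of the same channel, read 189.2 to 288.9 in control and 336.3 to 404.0 in ablated uteri (log2 0.77, adjusted p = 0.0514).

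Of the 12 linkers, filaments and adhesion genes 0 passed by their brightest probe set, with a median of -0.02. Des, the desmin of muscle intermediate filaments, read 4153, 4557 and 5096 in control and 4521, 4344 and 4361 in ablated uteri. The groups overlapped, control replicate 3 was the highest array, and the difference was -0.06 (95% interval -0.22 to 0.10). Synpo2 (synaptopodin 2, an actin-bundling protein) varied least by its brightest probe set, from 4100 to 4209 over the 6 arrays, a difference of -0.02. Its dimmer probe sets differed by -0.17, -0.22 and 0.33, none past the test (adjusted p = 0.499, 0.337 and 0.182). The last read 111.0 to 141.9 in control and 150.7 to 163.1 in ablated uteri, without overlap. Vcl (vinculin), Flna (filamin A), Actn1 (an alpha-actinin), Csrp1, Pgm5, Pdlim3 and Pdlim7 lay between -0.12 and 0.16, with adjusted p values from 0.181 to 0.797. The second Csrp1 probe set read 3005 to 3374 in control and 3649 to 3790 in ablated uteri, a larger difference (log2 0.25, adjusted p = 0.0637) than that of the brightest (0.05).

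Itga8, the alpha 8 integrin subunit of mesenchymal and smooth muscle cells, passed by its dimmer probe set alone, which read 78.5, 60.9 and 67.7 in control and 114.1, 97.9 and 120.6 in ablated uteri, without overlap (log2 0.69, SE 0.14, adjusted p = 0.0466). The brighter one read 290.6, 195.5 and 258.1 against 331.8, 315.6 and 357.9 and did not pass (log2 0.45, SE 0.15, adjusted p = 0.137). The control mean of the dimmer probe set, 69.0, lay under the filter on dim signal (6.16 on the log2 scale), so it was tested only because its ablated arrays were higher, and it did not pass without the filter (adjusted p = 0.0715). It passed in 8 of 16 alternatives that tested it (adjusted p from 0.0325 to 0.201), and of the 6 alternatives that leave out 1 array it passed only without control replicate 3 (0.0370). With it, 3 of the 74 tested probe sets of these genes were called, where 2.14% of all probe sets were, and for the same reason nothing is read from that count.

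Synm (synemin, an intermediate filament protein that binds desmin) read 565.7, 628.6 and 601.8 in control and 584.5, 467.7 and 348.4 in ablated uteri. Ihh-ablated replicate 1 lay among the controls, and the difference of -0.39 (SE 0.17) did not pass (adjusted p = 0.205). The dimmer Synm probe set read 329.7, 384.7 and 370.3 against 323.4, 265.0 and 296.9, without overlap. That difference was -0.29 (adjusted p = 0.179). Ldb3, a Z-disc protein of striated muscle, read 122.0, 151.4 and 220.9 against 129.6, 118.0 and 124.3. The difference of -0.37 (adjusted p = 0.292) was -0.13 without control replicate 3, the array with skeletal muscle transcripts. The dimmer Ldb3 probe sets differed by -0.44 and -0.37, neither past the test. The first was again highest in control replicate 3, and its groups overlapped. The second read 100.2, 115.5 and 103.1 against 85.1, 76.8 and 85.2, without overlap (adjusted p = 0.138), and was highest in control replicate 2.

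**Figure D3:**
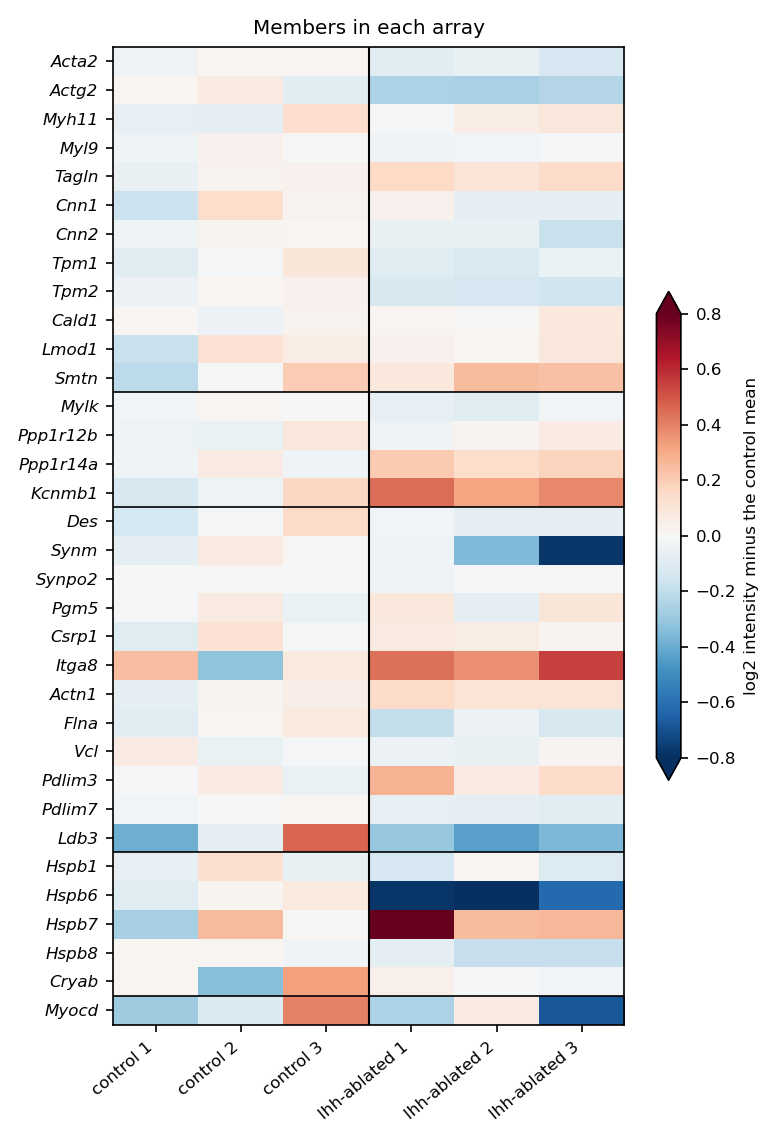
Log2 intensity minus the control mean (colour) of each of the 34 genes (rows, grouped by role) in each array (columns). Hspb6 and Actg2 are lower in all 3 Ihh-ablated columns, and Ldb3, Cryab and Myocd are highest in control replicate 3.

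Small heat shock proteins, chaperones of the alpha-crystallin family that muscle makes in quantity, spread from -0.78 to 0.44 on the log2 scale. Of 5 genes 1 was lower, 0 were higher and 4 did not pass. Hspb6 (Hsp20), which is phosphorylated when smooth muscle relaxes, read 572.1, 621.3 and 648.5 in control and 357.9, 321.3 and 398.0 in ablated uteri. The lowest control array was thus well above the highest Ihh-ablated array. The means were 613.9 ± 38.7 and 359.1 ± 38.4 (SD, n = 3 each), a fall by 41.7% (log2 -0.78, SE 0.11, 95% interval -1.02 to -0.54, adjusted p = 0.0101). Skeletal muscle also makes Hspb6, and the summed striated muscle markers were higher in every control array (7321, 7416 and 22134) than in any ablated array (3594 to 4240), with all 23 tested markers below 0. Their part in the Hspb6 difference was not tested. Without control replicate 3 the difference was -0.74 (adjusted p = 0.00902). Without Ihh-ablated replicate 1 the adjusted p was 0.0538 at the same difference of -0.78, and the call held in the other 17 alternatives. The gene has 1 probe set, so no second one bears on the value.

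Hspb7 (the cardiovascular small heat shock protein) leaned the opposite way: it read 541.0, 772.9 and 654.4 in control and 1132, 772.2 and 779.5 in ablated uteri. Ihh-ablated replicate 1 stood highest and the groups overlapped. The difference of 0.44 (SE 0.17) did not pass (adjusted p = 0.178). Its other probe sets differed by 0.14 and 0.46 (adjusted p = 0.506 and 0.145). Hspb8 read 1251 to 1287 in control and 1120 to 1209 in ablated uteri (log2 -0.15, adjusted p = 0.230). Hspb1 (Hsp25 of the mouse) differed by -0.08 (95% interval -0.23 to 0.08). Cryab, alpha B-crystallin, read 389.0, 304.5 and 483.7 against 397.2, 387.1 and 379.1, a difference of 0.01 with a wide interval (-0.34 to 0.36). Among 15 other chaperones of the heat shock response tested, 0 passed and the median was -0.08, with the inducible Hspa1a at 0.14 and its constitutive relative Hspa8 at 0.04.

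Myocd (myocardin), the coactivator of serum response factor in smooth and cardiac muscle, read 395.2, 443.8 and 636.5 in control and 403.8, 504.1 and 301.2 in ablated uteri. The arrays overlapped widely, with control replicate 3 highest and Ihh-ablated replicate 3 lowest (log2 -0.29, SE 0.21, adjusted p = 0.425). Its dimmer probe set read 132.9 to 166.4 in control and 111.7 to 128.1 in ablated uteri (log2 -0.25, adjusted p = 0.279). Of the 21 genes of serum response factor and myocardin family regulation, 0 were called and the median was 0.04. Srf itself read 1172 to 1495 in control and 1295 to 1554 in ablated uteri (log2 0.10, adjusted p = 0.568). Csrp2, a LIM protein that assists it, differed by -0.42 (adjusted p = 0.0974).

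**Figure D4:**
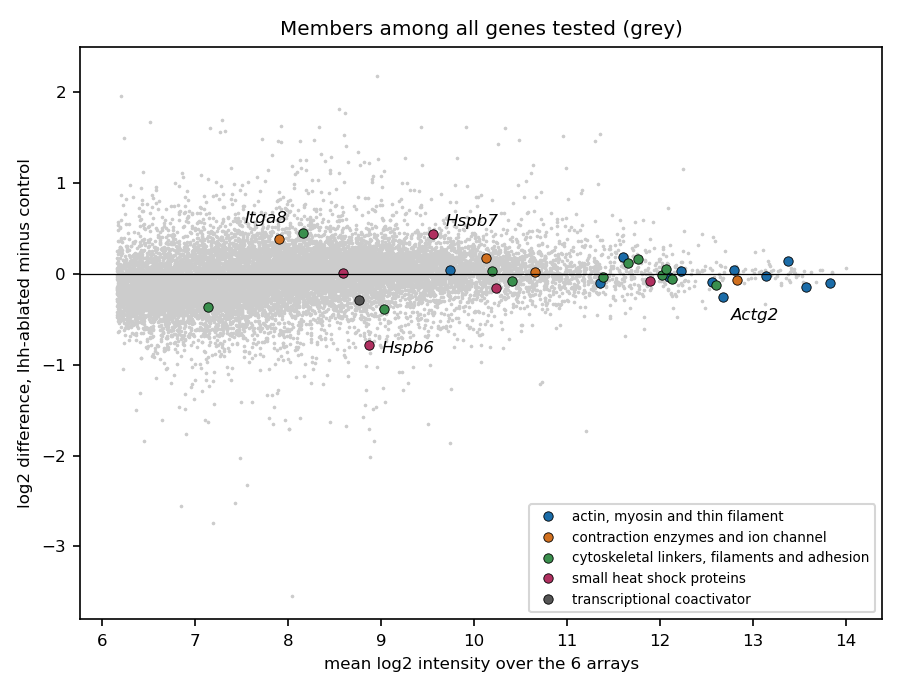
Log2 difference (vertical axis) against mean log2 intensity (horizontal axis) of the 34 genes, coloured by role, with all 15530 genes tested in grey. The bright contractile genes lie in a narrow band around 0 at the right, and Hspb6 lies lowest of the 34.

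Genes around the contractile apparatus, from other lists, moved in single members. Mrvi1 (IRAG), the substrate through which cyclic GMP kinase blocks calcium release, rose from 1509, 1502 and 1798 to 2574, 2274 and 2470 (log2 0.61, SE 0.09, adjusted p = 0.0107), and a second probe set gave 0.59 (adjusted p = 0.0142). The call of Mrvi1 was lost in 4 of 18 alternatives, among them leaving out control replicate 1, control replicate 2 or Ihh-ablated replicate 1 (highest adjusted p 0.0622). Rgs2, which damps signalling of contractile receptors, fell from 6191, 5552 and 4888 to 4135, 4194 and 3610 (log2 -0.47, SE 0.09, adjusted p = 0.0315), and lost the call in 7 of 18 alternatives. Its other probe sets differed by -0.65, -0.25 and -1.28, of which the last passed (adjusted p = 0.0128). Prkg1, that kinase, differed by 0.36 without passing (adjusted p = 0.0781).

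Among 15 agonist receptors and connexins tested, 1 rose. Oxtr, the oxytocin receptor of the myometrium, rose from 233.9, 251.9 and 435.3 to 732.2, 791.9 and 577.4 (log2 1.24, SE 0.22, adjusted p = 0.0271). Control replicate 3 lay above the other controls and below every Ihh-ablated array. The dimmer Oxtr probe set did not pass (log2 0.43, adjusted p = 0.161), and the call was lost in 6 of 18 alternatives (adjusted p up to 0.115), namely without an intensity trend and without any 1 array except control replicate 3. The connexin Gja1, which couples myometrial cells, differed by -0.11 (adjusted p = 0.430). Of 24 dense plaque, dystrophin complex and caveola genes tested, 1 rose, the adhesion protein Tns1 (log2 0.37, adjusted p = 0.0447), which passed in 8 of 18 alternatives, while its dimmer probe sets differed by 0.13 and 0.14. Of 22 calcium handling and ion channel genes 0 passed, with a median of 0.03. Among 16 non-muscle actomyosin genes 2 fell and 0 rose. Tagln2, the broadly expressed relative of Tagln, fell by 0.59 on the log2 scale (adjusted p = 0.0440; a second probe set by 0.55), and Cfl1 (cofilin, which severs actin) by 0.22 (adjusted p = 0.0384), with the call kept in 8 and 9 of 18 alternatives.

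The summed intensity of the 34 genes, 1 probe set each, was 128265, 135268 and 136151 in control and 130658, 129932 and 130028 in ablated uteri, so the Ihh-ablated arrays lay within the range of the controls. Among the 34 genes, 12 were highest in control replicate 2, 11 in control replicate 3 and 11 lowest in control replicate 1. Control replicate 2 also had the highest array median (142.5, against 125.8 in each other control). The same counts over all genes were not made, and the part of the array level was not tested. The mean log2 deviation of all 34 ran from -0.06 in control replicate 1 to 0.08 in control replicate 3. The 14 markers of pericytes and vascular smooth muscle gave 0 calls, with a median of -0.19 and summed intensities of 7233 to 8584 in control and 7239 to 8708 in ablated uteri. Rgs5, the brightest of them, differed by -0.05 (adjusted p = 0.831).

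Striated muscle markers were unlike the smooth muscle genes: all 23 differences tested lay below 0. Of the 23, 2 fell (8.70%, against 2.81% of all genes called), Acta1 (skeletal alpha-actin, log2 -1.73) and Tnnt1 (slow troponin T, -0.79), and 0 rose. Acta1 passed in 18 of 18 alternatives and Tnnt1 in 13. Without control replicate 3 and Ihh-ablated replicate 2, Tnnt1 did not pass (log2 -0.61, adjusted p = 0.0552). Their sums over 25 genes are those given beside Hspb6. Actin probe sets can share sequence, and whether Acta1 transcripts add to the Acta2 value was not tested. Adipocyte markers summed to 5374 to 19823 in control and 15417 to 35251 in ablated uteri, with 0 of 14 called. Uterine epithelium markers summed to 13056 to 19150 in control and 18494 to 20206 in ablated uteri, with 0 of 14 called, 13 of 14 differences above 0 and a median of 0.33. Of 14 endometrial stroma markers 3 rose (Dcn, Rspo1 and Col6a4) and 3 fell (Thy1, Vim and Vcan), 42.9% against 2.81% of all genes. Thy1 (log2 -1.54 to -1.34 over the alternatives) and Vcan (-1.89 to -1.52) kept their calls in every alternative that tested them. Dcn kept its call in 7 of 18, Vim in 12, Rspo1 in 14 and Col6a4 in 17. Summed over the 14 markers, intensities were 28259 to 32752 in control and 30464 to 30857 in ablated uteri, which hides these opposite differences. The part of these tissues in the differences above was not tested. Without control replicate 3 and Ihh-ablated replicate 2, both arrays with transcripts of another tissue, 2 of the 34 genes were again lower, again Actg2 (log2 -0.29, adjusted p = 0.0143) and Hspb6 (log2 -0.66, adjusted p = 0.0197), beside 7.37% of all genes tested that were called in either direction.

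**Figure D5:**
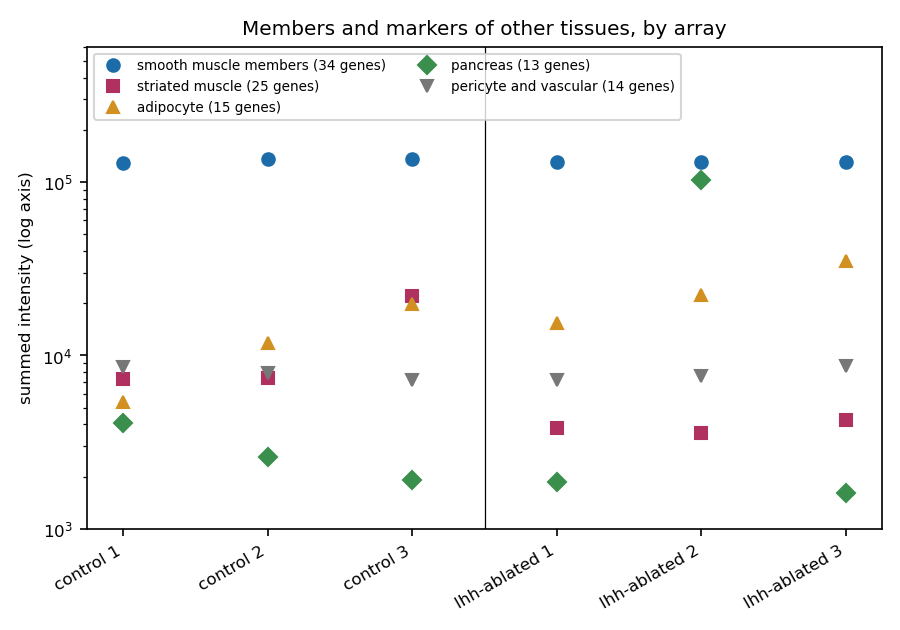
Summed intensity (log axis) of the 34 smooth muscle genes and of markers of striated muscle, adipocytes, pancreas and pericytes in each array. The smooth muscle sum stays between 128265 and 136151, whereas the striated muscle sum peaks in control replicate 3 and the pancreas sum in Ihh-ablated replicate 2.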

How the data were processed

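Biotinylated cRNA was made from uterine RNA for Affymetrix arrays, per the labels' protocols. The authors deposited 1 intensity per probe set and array on a linear scale; for background correction, summarisation and normalization, no source used here gives the method, and no detection calls were used. Of 45101 probe sets, 64 controls were left out. The platform annotation gave 1 symbol for 34945, several for 932 and none for 9160. Intensities under 16 were set to 16 and log2 was taken. Array medians differed by at most 0.231, under the limit of 0.3 set for renormalization. The lowest 25% by mean log2 were left out, which left 33777 probe sets. Genotypes were compared with limma 3.58.1 (R 4.3.3; lmFit and eBayes with an intensity trend), with Benjamini-Hochberg adjustment over all of these. Means and SDs are linear, differences and SEs log2, and percent changes come from the log2 fit.

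The fit was tested on simulated data. Members, gene lists and tests were chosen with earlier results of these data known. Values in every array are given for called members, members with another probe set called and 8 defining genes, and beyond this rule for other members whose values were seen first; of other lists, up to 4 called genes and some uncalled ones chosen after their values were seen. Alternatives changed the normalization, floor, filter, variance model, weights, block, arrays, probe set and threshold. Promoters are RefSeq windows. Figures were drawn with matplotlib 3.10.9. With 3 arrays per group, their number limits the precision. The count for 1 gene list is not reported here.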

Additional observations from a re-analysis of the deposited data

How the results depend on the processing

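The 34 genes gave 2 calls, and the count moved to 1 with median-centred arrays, without a filter and without an intensity trend, and ranged from 0 to 3 when each array was left out. The lowest, 0, came without Ihh-ablated replicate 1, and the highest, 3 (Kcnmb1 beside Actg2 and Hspb6), without control replicate 3; leaving out any other array gave 1, Hspb6. Over all genes 12.2% were called without control replicate 3, so 3 of 34 is no larger share there, and 0.644% to 1.51% without any other array. Fewer arrays leave fewer degrees of freedom. Over all 18 alternatives Actg2 passed in 10 and Hspb6 in 17, and both kept their direction. At an adjusted p under 0.10, Tpm2 passed as well, with 6.58% of all genes. With median-centred arrays the median difference over the 34 genes moved to 0.07, while that over all genes moved from -0.04 to 0.05. Deviations of same-numbered replicates correlated at -0.15, -0.04 and 0.25 (replicates 1 to 3), and only replicate 3 matched its own number best. Whether the numbers pair the arrays is thus not settled. With them as a replicate block the count was again 2, with 5.94% of all genes called against 2.81%.

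Among the 34 genes 19 kept their direction in every alternative run, and 15 that did not pass in the main setting, each near 0, changed sign in at least 1. After quantile normalization these were Myh11 (-0.036), Cald1 (-0.016), Ppp1r12b (-0.026), Csrp1 (-0.0029) and Cryab (-0.0018). With median-centred arrays they were Myl9 (0.070), Cnn1 (0.053), Mylk (0.029), Des (0.034), Synpo2 (0.076), Vcl (0.062), Pdlim7 (0.013) and Hspb1 (0.013). Array weights turned Cnn1 (0.033) and Cryab (-0.075), and the mean of all probe sets turned Acta2 (0.029), Myh11 (-0.053), Ppp1r12b (-0.17), Des (0.025), Vcl (0.097) and Cryab (-0.043). Leaving out 1 array, Lmod1 ranged from -0.043 to 0.10, Ppp1r12b from -0.0056 to 0.066, Vcl from -0.056 to 0.0033, Cnn1 from -0.12 to 0.032, Cryab from -0.16 to 0.17 and Des from -0.13 to 0.019, and without both arrays that carry another tissue's transcripts Des read 0.030. For median centring the shift of all genes is by construction; the other causes were not tested.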
